A study of Mus musculus with 2 samples.

Results

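Cycling ovarian stroma is the share of the connective tissue cells of the newborn mouse ovary that carried RNA of the proliferation genes Mki67 and Top2a. Members were chosen from 2 single-cell tables of UMIs (unique molecular identifiers, each standing for 1 captured RNA molecule), with every level taken per 10,000 UMIs of a barcode. A member barcode had at least 5000 UMIs, a summed level of Col1a1, Col1a2, Col3a1 and Dcn of at least 40, and a summed level of Mki67 and Top2a of at least 2. It also had less than 10 of the MHC class II genes Cd74, H2-Aa, H2-Ab1 and H2-Eb1, less than 10 of the pericyte gene Rgs5, less than 5 of the smooth muscle genes Myh11, Actg2 and Cnn1, and less than 4 of the endothelial genes Cdh5, Cldn5, Egfl7 and Flt1. Of 10096 barcodes, 835 met the rule, 419 of them in the library labelled DEHP_MLT and 416 in the library labelled MLT. The barcodes that met every other limit but had less Mki67 and Top2a are called non-cycling stroma here, 1735 in DEHP_MLT and 1598 in MLT. No doublet caller was run, so a barcode can hold more than 1 cell.

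The ovaries came from C57BL pups at postnatal day 3, and 1 library of the 10x Genomics 3′ assay was made per group. In the DEHP_MLT group the mothers were gavaged daily from embryonic day 16.5 to postnatal day 3 with DEHP, a phthalate plasticizer, and received melatonin later on the same days. In the MLT group the mothers received the same melatonin with DMSO in place of DEHP, so both groups carry melatonin and a group without it is not part of the comparison. The study asked what melatonin does in the ovaries of pups exposed to DEHP while primordial follicles form, and the sources do not say how many pups gave cells to a library. The 2 count tables are named the opposite way round from the titles of their samples: the title DEHP_MLT goes with a table called MLT, and the title MLT with one called DEHP_MLT. The titles were followed here, and if the table names hold instead, every difference between the libraries has the opposite sign.

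With 1 library per group there is no replicate error, cells are not replicates, and no test was run. Shares of barcodes carry exact Clopper-Pearson 95% intervals. Levels are UMIs summed over the barcodes of a class and given as CPM, counts per 1000000 UMIs of the class, with exact Poisson 95% intervals. Both kinds of interval cover counting error only, not the spread between pups or libraries. A gene is called apart where 2 classes differ at least 1.5-fold with intervals that do not meet, among genes at 50 CPM or more in either class. Log2 ratios were taken after adding 1 CPM to both levels.

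Before a cell divides it copies its DNA in S phase, passes through G2 and separates its chromosomes in mitosis, and each step switches on its own genes. Licensing factors load the MCM helicase onto DNA, the replication fork copies it while clustered histone genes supply packaging protein, and in G2 and mitosis the kinases, kinetochores and kinesins of the spindle take over. Many late genes carry a cell cycle homology region (CHR) in their promoters, read by the DREAM and MuvB complexes, whereas many early genes carry E2F sites. Ovarian stroma arises from mesenchyme of the gonad, makes the collagen matrix between follicles, and divides in the newborn ovary while the first follicles are enclosed.

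The promoters of genes that mark or lead these cells are shown so that matches to these motifs, or their absence, can be read in them. Each window of 300 bases runs from 250 bases before to 50 bases after a RefSeq transcript start on GRCm38.p6, in the direction of the gene. Capitals mark the letters TTTGAA or TTCGAA (CHR), CCAAT (the box bound by NF-Y), and TTCGCGC or TTGGCGC (E2F-type), on either strand, and matches may overlap. Mki67 encodes a coat of mitotic chromosomes, Top2a the topoisomerase that untangles DNA, Pclaf a partner of the sliding clamp PCNA, Kif23 a kinesin of the dividing cell's midzone, and Mcm6 a subunit of the replicative helicase. Pimreg, the remaining marker, has no window in the table used.
Mki67, chr7:135716330-135716629, minus strand: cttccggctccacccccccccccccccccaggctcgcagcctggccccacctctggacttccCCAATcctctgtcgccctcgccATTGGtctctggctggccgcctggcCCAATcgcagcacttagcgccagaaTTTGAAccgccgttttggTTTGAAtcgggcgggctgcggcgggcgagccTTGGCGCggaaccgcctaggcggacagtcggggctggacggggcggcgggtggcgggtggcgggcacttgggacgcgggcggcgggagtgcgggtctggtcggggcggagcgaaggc
Top2a, chr11:99024140-99024439, minus strand: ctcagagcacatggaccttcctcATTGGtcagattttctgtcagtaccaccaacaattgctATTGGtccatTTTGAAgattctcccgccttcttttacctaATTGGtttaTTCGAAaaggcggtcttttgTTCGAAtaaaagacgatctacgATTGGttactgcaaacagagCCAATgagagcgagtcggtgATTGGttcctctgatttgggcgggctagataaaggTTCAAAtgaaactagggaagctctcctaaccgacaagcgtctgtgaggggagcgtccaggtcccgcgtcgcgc
Pclaf, chr9:65890073-65890372, plus strand: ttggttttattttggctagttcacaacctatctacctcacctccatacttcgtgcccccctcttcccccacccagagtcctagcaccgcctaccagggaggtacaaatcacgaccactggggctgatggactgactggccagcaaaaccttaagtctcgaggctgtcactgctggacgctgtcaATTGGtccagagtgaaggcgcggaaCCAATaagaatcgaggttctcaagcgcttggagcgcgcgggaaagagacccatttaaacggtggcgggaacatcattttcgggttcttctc
Kif23, chr9:61946750-61947049, minus strand: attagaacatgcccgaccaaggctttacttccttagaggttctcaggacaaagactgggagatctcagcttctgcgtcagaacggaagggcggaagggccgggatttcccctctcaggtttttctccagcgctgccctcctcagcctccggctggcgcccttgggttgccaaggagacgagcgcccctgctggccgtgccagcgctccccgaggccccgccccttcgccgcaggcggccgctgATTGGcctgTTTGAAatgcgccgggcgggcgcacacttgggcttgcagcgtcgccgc
Mcm6, chr1:128359656-128359955, minus strand: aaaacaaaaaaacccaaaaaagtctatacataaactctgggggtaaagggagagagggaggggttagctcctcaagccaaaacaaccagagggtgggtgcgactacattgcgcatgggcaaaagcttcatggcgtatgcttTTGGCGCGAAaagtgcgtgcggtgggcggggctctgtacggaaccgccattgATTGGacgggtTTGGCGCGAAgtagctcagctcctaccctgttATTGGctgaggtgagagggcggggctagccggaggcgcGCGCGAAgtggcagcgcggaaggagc

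Top2a held 4 CHR matches and 6 CCAAT boxes, Mki67 held 2 CHR matches, 3 CCAAT boxes and 1 E2F-type match, and Kif23 held 1 CHR match and 1 CCAAT box. Pclaf held 2 CCAAT boxes and no match to the CHR or E2F-type letters, and Mcm6 held 2 CCAAT boxes and 5 E2F-type matches, some of which overlap. Only TTCGCGC and TTGGCGC were searched as E2F-type, so other forms of an E2F site were not counted. Among 47 of 54 G2/M genes with a window, 74.5% held a CHR match and 76.6% a CCAAT box. Among 30 of 42 G1/S and S genes with a window, 16.7% held a CHR match, 70% a CCAAT box and 30% an E2F-type match, and 17% of the G2/M windows held an E2F-type match. Over the first windows of all 27025 genes in the table, 19.4% held a CHR match, 37.9% a CCAAT box and 3.98% an E2F-type match. A match describes letters in the window and is not evidence of binding.

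The marker genes went with the label. Mki67 had a UMI in 94.0% of DEHP_MLT members and 92.8% of MLT members, and Top2a in 93.1% and 90.4%. These genes chose the members, so their shares are a description. Pclaf, which the rule did not use, had a UMI in 92.8% of DEHP_MLT members against 15.6% of DEHP_MLT non-cycling stroma, and in 85.3% of MLT members against 15.5% of MLT non-cycling stroma. Pimreg had a UMI in 69.2% of DEHP_MLT members against 2.54% of non-cycling stroma, and in 55.3% of MLT members against 2.50% of non-cycling stroma. Members had median totals of 16596 UMIs in DEHP_MLT and 14771.5 in MLT, above the 10914 and 10418.5 UMIs of non-cycling stroma, and deeper barcodes detect more genes.

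Transcription factors and receptors of gonadal mesenchyme were present in most members. Tcf21, a transcription factor of stromal progenitors, had a UMI in 94.7% of DEHP_MLT members and 78.4% of MLT members. Nr2f2, an orphan nuclear receptor of interstitial cells, had one in 94.0% of DEHP_MLT members and 96.2% of MLT members. Pdgfra, the receptor for PDGF-A, had one in 79.7% of DEHP_MLT members and 87.0% of MLT members. Foxl2, best known from granulosa cells, also had a UMI in 81.1% of DEHP_MLT members and 80.8% of MLT members, and in 71.5% and 75.4% of non-cycling stroma. Kitl, another granulosa marker, had a UMI in 54.9% of DEHP_MLT and 66.1% of MLT members, Fst in 8.59% and 10.8%, and Amh in 0.716% and 3.12%. The 5 granulosa markers together had a median of 1.67 per 10,000 in DEHP_MLT members and 2.46 in MLT members. They reached 4 per 10,000 in 52 (12.4%) of the DEHP_MLT and 98 (23.6%) of the MLT members. In non-cycling stroma they did so in 15.4% of DEHP_MLT and 25.3% of MLT barcodes. Barcodes with less than 20 of the collagen and Dcn sum that carried 4 or more of those markers had medians of 9.25 and 11.3. Fshr, the FSH receptor of granulosa cells, had a UMI in 0 of 419 DEHP_MLT members and 0 of 416 MLT members, which allows shares of up to 0.877% and 0.883% (exact intervals). It was as rare in non-cycling stroma, with a UMI in 1 barcode of each library.

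Markers of other cell types were seen to unequal degrees. The 5 germ cell markers reached 4 per 10,000 in 8 of 419 DEHP_MLT members and 28 of 416 MLT members, and the 5 macrophage markers in 1 and 2 members. Dppa3, a germline gene, had a UMI in 74.2% of DEHP_MLT members and 68.5% of MLT members, Figla, an oocyte transcription factor, in 31.7% and 32.7%, and Sycp3, of the meiotic chromosome axis, in 32.0% and 26.4%. The RNA-binding gene Dazl had one in 13.1% of DEHP_MLT members and 12.3% of MLT members, and Ddx4, the germ cell helicase, in 5.97% and 9.13%. Non-cycling stroma had close shares, with Dppa3 in 64.3% in DEHP_MLT and 64.7% in MLT, and Figla in 29.2% and 28.5%. Steroidogenic Cyp11a1 and Cyp17a1 had a UMI in 0.239% of DEHP_MLT members each and in 0 of 416 MLT members, which allows a share of up to 0.883% for each (exact interval). The other steroidogenic markers were seen more often, Hsd3b1 in 14.1% of DEHP_MLT and 23.3% of MLT members and Star in 5.97% and 3.37%. In non-cycling stroma Hsd3b1 had a UMI in 12.3% of DEHP_MLT and 22.7% of MLT barcodes, and Star in 2.36% and 3.38%. Haemoglobin RNA differed between the libraries: it had a median of 55.7 per 10,000 in DEHP_MLT members and 4.07 in MLT members, and 57.3 and 4.22 in non-cycling stroma. At 100 or more per 10,000 stood 31 DEHP_MLT members and 1 MLT member. S100a9, a neutrophil calprotectin subunit, had a UMI in 55.4% of DEHP_MLT members and 10.1% of MLT members, while the neutrophil surface gene Ly6g had a UMI in 1 and 0 members. MHC class II genes, which present antigen, summed to 2.85 CPM in DEHP_MLT members and 106 CPM in MLT members. The rule's limit on them took 464 stroma barcodes out of MLT and 0 out of DEHP_MLT, and 17.5% (14.1% to 21.2%) of those 464 had 2 or more of Mki67 and Top2a.

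The level of Mki67 and Top2a, which the rule used, spread widely among members. It had a median of 12.4 per 10,000 in DEHP_MLT (quartiles 5.45 and 18.7, highest 55.5) and 17.3 in MLT (quartiles 5.57 and 30.4, highest 60.8). The member just inside the limit stood at 2.014 in DEHP_MLT and 2.01 in MLT, and the barcode just outside at 1.987 and 1.973. On the collagen and Dcn sum, members just inside stood at 40.46 and 40.03 and barcodes just outside at 39.44 and 39.65. Both genes were seen in 365 DEHP_MLT members and 346 MLT members, and 19 and 35 members rested on 2 UMIs. In non-cycling stroma 392 DEHP_MLT and 440 MLT barcodes had at least 1 UMI of either gene, so the limit divides a range.

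**Figure D1:**
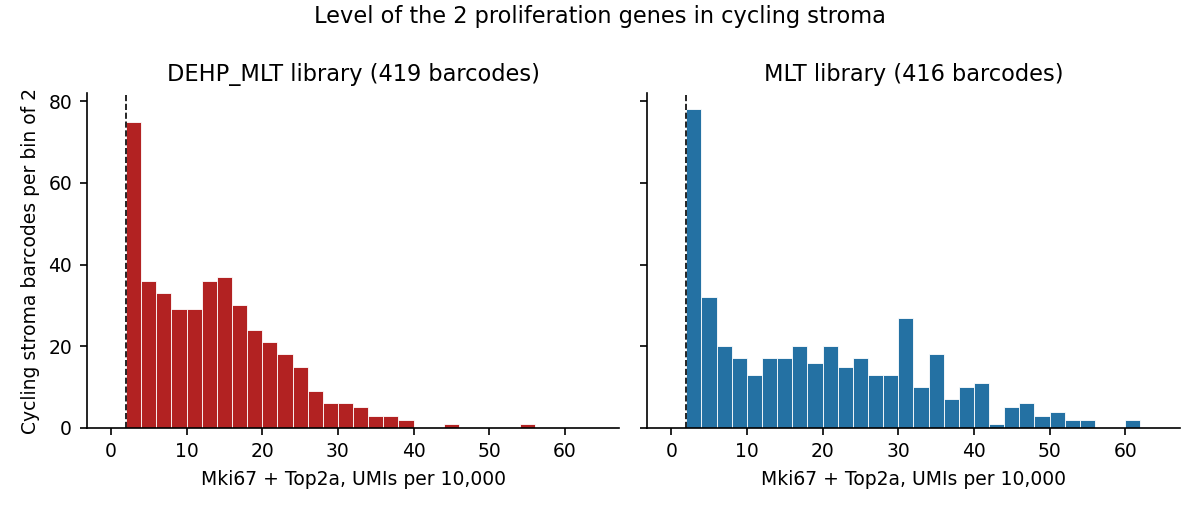
Histograms of the summed level of Mki67 and Top2a (x axis, UMIs per 10,000) in the cycling stroma barcodes of each library (y axis, barcodes per bin of 2); the dashed line is the limit of 2. The DEHP_MLT members reach 55.5 and the MLT members 60.8, and in both libraries the bin next to the limit is the fullest.

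Members made up 19.5% (17.8% to 21.2%) of gated stroma in DEHP_MLT and 20.7% (18.9% to 22.5%) in MLT, with intervals that overlap. When every barcode was thinned to 5000 UMIs, 27.0% (25.2% to 28.9%) of DEHP_MLT and 31.2% (29.2% to 33.3%) of MLT gated stroma had 1 or more UMI of Mki67 or Top2a, with intervals apart. At that depth 14.4% (11.0% to 18.4%) of 368 granulosa-type barcodes in DEHP_MLT and 14.9% (11.9% to 18.4%) of 489 in MLT had such a UMI. Granulosa-type barcodes had 4 or more of Foxl2 and Fst, less than 20 of the collagen and Dcn sum, less than 10 of the MHC class II genes and less than 1 of the germ genes Ddx4 and Dazl per 10,000. Non-cycling stroma stood at 10.7% and 14.2%. The median totals before thinning were 22617.5 and 17594 UMIs in the granulosa-type barcodes, and 11511.5 and 10753 UMIs in gated stroma. The share of members differed by barcode total. It was 9.94% (5.90% to 15.4%) in DEHP_MLT and 16.7% (12.2% to 22.1%) in MLT between 5000 and 8000 UMIs, and 5.28% (3.99% to 6.84%) and 9.02% (7.40% to 10.9%) between 8000 and 12000. It was 33.7% (30.2% to 37.4%) in DEHP_MLT and 37.3% (33.5% to 41.3%) in MLT between 12000 and 20000 UMIs, and 42.1% (36.3% to 48.1%) and 78.0% (65.3% to 87.7%) above 20000. In this last band 120 of 285 DEHP_MLT and 46 of 59 MLT barcodes were members. Totals above 3 times the stroma median were reached by 22 DEHP_MLT members and 2 MLT members.

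Members were found among the stroma varieties that their own markers set apart. The genes of a variety were counted at 5000 UMIs per barcode, and members were called at full depth. Gated stroma with 2 or more UMIs of Gli1, Ptch1 and Hhip, genes that respond to hedgehog, held 25.9% (18.1% to 35%) members in DEHP_MLT and 21.7% (17.3% to 26.6%) in MLT, against 19% and 20.6% where none was seen. Gated stroma with 2 or more UMIs of Ntrk3, Ndnf and Dpt held 11.9% (6.51% to 19.5%) members in DEHP_MLT and 16.1% (11.6% to 21.5%) in MLT, against 19.9% (18.1% to 21.8%) and 21.6% (19.5% to 23.8%) where none was seen. With 1 or more UMI of Mki67 or Top2a at 5000 UMIs in place of the rule, the hedgehog shares were 33.9% against 26.7% in DEHP_MLT and 33% against 30% in MLT. Those of Ntrk3, Ndnf and Dpt were 22% against 27.3% in DEHP_MLT and 25.7% against 32.4% in MLT. By both measures the intervals overlap in each library for both sets of markers.

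Of 3232 genes at 50 CPM or more in each library, 313 (9.68%) were higher and 41 (1.27%) lower in cycling than in non-cycling stroma in both libraries. The members were chosen by this contrast, so the counts describe what came with Mki67 and Top2a and support nothing further. The lists written for the cell cycle and DNA repair held 130 of the 313. No gene was apart in opposite directions in the 2 libraries. The median log2 ratio over the tested genes was 0.02 in DEHP_MLT and 0.00 in MLT.

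Genes of the dividing apparatus were higher in members throughout. All 22 tested genes of the spindle and its kinesins were higher in members, with median log2 ratios of 4.34 in DEHP_MLT and 4.57 in MLT, as were all 16 of the centromere and kinetochore and all 14 mitotic kinases and checkpoint genes. Kif23 stood at 253 CPM (242 to 265) in DEHP_MLT members against 4.98 in non-cycling stroma, and at 308 CPM (294 to 322) in MLT members against 4.15. Its log2 ratios were 5.41 and 5.91, the highest mean of the named genes. Pimreg, a mitotic regulator, stood at 149 CPM in DEHP_MLT members against 2.12 in non-cycling stroma, and at 125 CPM in MLT members against 2.34. Knl1, a scaffold of the kinetochore, stood at 163 CPM against 3.37 in DEHP_MLT and at 257 CPM against 5.09 in MLT. Kif11, the motor that separates spindle poles, Aurkb, the kinase of the chromosomal passenger complex, Hmmr, Kif15, Cenpf, Neil3, Depdc1a and the Mad-family repressor Mxd3 were also among the highest 12, with log2 ratios between 4.74 and 5.43. The remaining gene of the 12 was the clustered histone Hist1h2ap, of S phase, with log2 ratios of 5.31 in DEHP_MLT and 5.55 in MLT.

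Genes that copy DNA were higher by smaller ratios, and the histones that package it were higher by ratios near those of the spindle genes. All 14 tested genes of the replication fork were higher, with medians of 1.39 in DEHP_MLT and 1.66 in MLT, and so were all 7 of nucleotide synthesis, with medians of 2.37 and 2.32. Of 8 licensing genes 6 were higher. Pcna, the sliding clamp, stood at 197 CPM in DEHP_MLT members against 68.3 in non-cycling stroma and at 251 CPM in MLT members against 68.9. Tk1, which makes thymidine monophosphate, stood at 175 CPM against 10.7 in DEHP_MLT and at 166 CPM against 8.94 in MLT. All 10 tested clustered histones were higher, with medians of 3.88 in DEHP_MLT and 4.91 in MLT, below the spindle list in DEHP_MLT and above it in MLT.

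**Figure D2:**
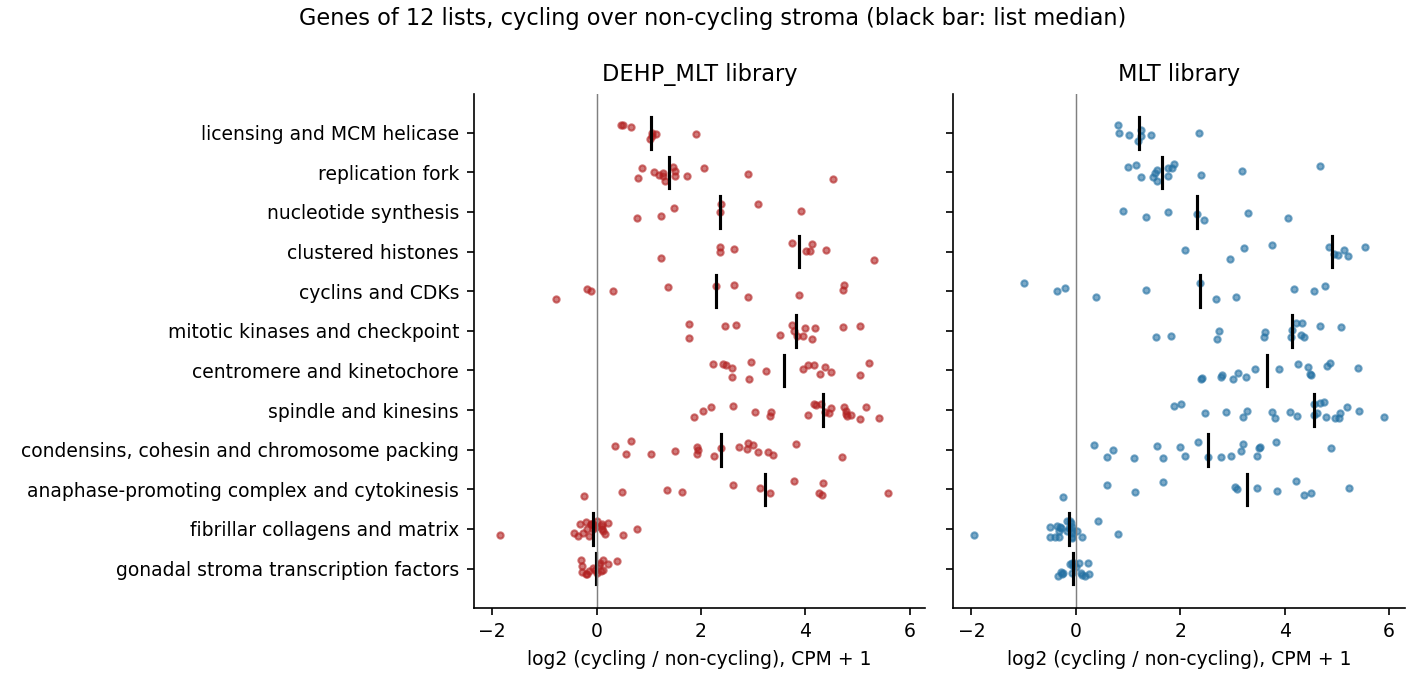
Log2 ratios of cycling over non-cycling stroma (x axis) for the tested genes of 12 lists (rows), 1 point per gene, with the DEHP_MLT library in one panel and the MLT library in the other; black bars are list medians. Spindle genes have medians of 4.34 and 4.57, and the matrix and stroma transcription factor lists lie around 0.

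Cyclins and CDK inhibitors did not move as blocks. Of 11 tested cyclin and CDK genes 7 were higher, among them Ccna2 (4.75 in DEHP_MLT, 4.78 in MLT) and Ccnb1 (4.73 and 4.57). Ccnd2, the D-type cyclin of growth signals, was lower: it stood at 330 CPM in DEHP_MLT members against 563 in non-cycling stroma, and at 316 CPM in MLT members against 633. Ccnd3 and Cdk6 were not apart. The INK4 inhibitors Cdkn2c and Cdkn2d, which block CDK4 and CDK6, were higher in members, with log2 ratios of 4.09 and 3.92 for Cdkn2c and 2.59 and 2.51 for Cdkn2d. Cdkn1c, an imprinted inhibitor that holds cells in G1, stood at 298 CPM in DEHP_MLT members against 349 in non-cycling stroma and at 303 CPM in MLT members against 341, and was not apart. Of 7 p53 targets and apoptosis genes 0 were apart, where 9.68% of all tested genes were higher and 1.27% lower.

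Few genes of the stroma programme outside the cell cycle were apart from non-cycling stroma, as was so for most tested genes. Of 16 tested stroma transcription factors 0 were apart, with medians of -0.01 in DEHP_MLT and -0.05 in MLT. Over all 3232 tested genes 9.68% were higher and 1.27% lower, with medians of 0.02 in DEHP_MLT and 0.00 in MLT. Of 23 tested matrix genes outside the rule, Vcan was higher and Ogn lower. Vcan, a large proteoglycan, stood at 60.5 CPM in DEHP_MLT members against 34.9 in non-cycling stroma, and at 169 CPM in MLT members against 95.6. Ogn, the small proteoglycan osteoglycin, stood at 25.2 CPM (21.8 to 29.1) in DEHP_MLT members against 93.6, and at 32.5 CPM (28.1 to 37.4) in MLT members against 129, the lowest ratios of the named genes at -1.85 and -1.96. Also lower were Wnt4 (-0.62 and -0.65), which directs ovarian differentiation, the glycolytic enzyme Aldoa (-0.92 and -1.07), the actin-binding gene Tagln (-0.77 and -0.94), Col27a1 (-0.98 and -1.25), the histone demethylase Kdm5b (-1.04 and -1.26) and Mxd4 (-0.76 and -0.94). Tcea3, Mettl1, Fndc5, Actr3b and Lima1 completed the 12 lowest, with log2 ratios between -1.19 and -0.66. Prdx4, a peroxiredoxin of the endoplasmic reticulum, was the sole antioxidant gene of 15 that was apart, at 0.83 in DEHP_MLT and 0.98 in MLT.

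Across gated stroma barcodes thinned to 5000 UMIs, the genes most like Mki67 and Top2a by Spearman correlation were Pclaf, Kif23, Prc1, Knl1, Nusap1, Cdca3, Tpx2 and Cdca8. The mean rho of the 2 libraries was 0.65 for Pclaf and between 0.56 and 0.60 for the others, over 2154 DEHP_MLT and 2014 MLT barcodes and 10967 genes ranked. The barcodes of a library share its preparation, and the genes were ranked on the same barcodes that the rule divided.

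Members differed among themselves by phase. Each barcode was thinned to 5000 UMIs and called led by G2/M where UMIs of 52 G2/M genes, without Mki67 and Top2a, outnumbered those of 42 G1/S and S genes. G2/M genes led in 77.3% (73.0% to 81.3%) of DEHP_MLT members and 69.5% (64.8% to 73.9%) of MLT members, with intervals that just overlap. G1/S and S genes led in 21.2% of DEHP_MLT members and 29.1% of MLT members, 6 members were tied in each library, and 27 and 25 members lay within 2 UMIs of a tie. The median member had 49 G2/M and 18 G1/S UMIs in DEHP_MLT and 53 and 23 in MLT, against 7 and 5 in DEHP_MLT non-cycling stroma and 8 and 6 in MLT non-cycling stroma. The rule chose members by Mki67 and Top2a, and both genes were higher in G2/M-led than in G1/S-led members. Mki67 stood at 686 against 195 CPM in DEHP_MLT and at 1237 against 342 CPM in MLT. The G2/M-led shares therefore describe members picked in this way, not the phases of all dividing stroma. The lists differ in size and level, so the line between the 2 states is a convention and not a cell type.

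**Figure D3:**
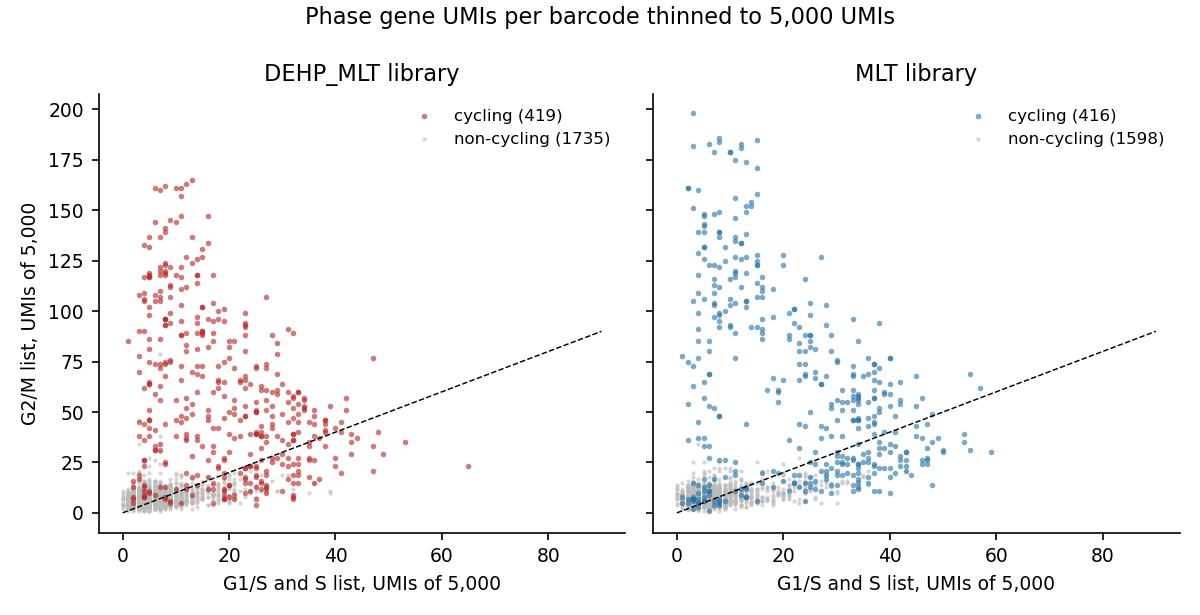
UMIs of the G2/M list (y axis) against UMIs of the G1/S and S list (x axis) per barcode thinned to 5000 UMIs, for cycling (coloured) and non-cycling (grey) stroma of each library; the dashed line marks equal UMIs. Members above the line number 324 in DEHP_MLT and 289 in MLT, and a part of the members lies within the grey cloud near the origin.

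Ccnb1 and Mcm6 followed the split, which in part was made with such genes, but clustered histones of S phase did not. Hist1h2ap stood at 3159 CPM in G2/M-led and 1332 CPM in G1/S-led members of DEHP_MLT, and at 2231 and 808 CPM in MLT. Hist1h1b, Hist1h2ae and Hist1h4d were likewise higher in the G2/M-led members of each library, so that state also holds S-phase RNA. Ccnb1, the cyclin that starts mitosis, stood at 203 CPM in G2/M-led and 13.3 CPM in G1/S-led members of DEHP_MLT, and at 233 and 17.1 CPM in MLT. Mcm6 stood at 78.5 CPM in G2/M-led and 217 CPM in G1/S-led members of DEHP_MLT, and at 97.2 and 334 CPM in MLT. Pclaf was high in both, with 614 and 733 CPM in DEHP_MLT and 629 and 766 CPM in MLT. Ccnd2 stood at 296 CPM in G2/M-led and 462 CPM in G1/S-led members of DEHP_MLT, and at 248 and 473 CPM in MLT. Tcf21 stood at 329 CPM in both states in DEHP_MLT, and at 175 and 129 CPM in MLT.

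Members nearest the limit carried less of the mitotic genes than those with more Mki67 and Top2a. In the 96 DEHP_MLT members with 2 to 5 per 10,000 of Mki67 and Top2a, Cenpa, the histone of the centromere, stood at 140 CPM and Ube2c, a ubiquitin enzyme of anaphase, at 122 CPM. In the 100 such MLT members Cenpa stood at 70.3 CPM and Ube2c at 59.3 CPM. Their median totals were 14302.5 UMIs in DEHP_MLT and 10004.5 UMIs in MLT. At 15 or more per 10,000 there were 166 DEHP_MLT members with 473 CPM of Cenpa and 232 MLT members with 409 CPM. The 5 to 15 band held 157 DEHP_MLT and 84 MLT members, where Ube2c stood at 424 CPM in DEHP_MLT and 94.6 CPM in MLT. In non-cycling stroma with no UMI of Mki67 or Top2a, Cenpa stood at 13.1 CPM in DEHP_MLT and 12.3 CPM in MLT, and Ube2c at 75 and 42.7 CPM, so Ube2c was higher in DEHP_MLT there too.

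Between the libraries, 72 of 3637 genes (1.98%) were higher and 320 (8.8%) lower in DEHP_MLT than in MLT cycling stroma. The median log2 ratio over the tested genes was -0.12 in cycling and -0.10 in non-cycling stroma, and scaling the libraries by their median ratio, which raises every ratio by 0.08, turned the counts to 110 higher and 197 lower. Many of these differences were also seen in non-cycling stroma: of 66 higher genes that could be compared in non-cycling stroma 46 were higher there too, and of 229 lower genes 159 were lower there too. In sums of this kind, fewer cells with an RNA and less RNA per cell cannot be told apart.

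Clustered histone genes made up 8 of the 12 lowest ratios named between the libraries. Of 13 in the list that were tested, 9 were lower and 1 higher in DEHP_MLT members, with a median of -1.29 against -0.12 over all tested genes. Of all tested genes 8.8% were lower and 1.98% higher. Hist1h1b, a linker histone, stood at 279 CPM (268 to 291) in DEHP_MLT members and 1057 CPM (1031 to 1083) in MLT members. Hist1h4d stood at 54.5 CPM (49.4 to 60.0) in DEHP_MLT members and 319 CPM (305 to 333) in MLT members, a log2 ratio of -2.53. Hist1h1e (178 and 513 CPM), Hist1h2ae (339 and 703 CPM), Hist1h2ab (72.0 and 208 CPM), Hist1h3c (61.4 and 198 CPM), Hist1h1a (57.0 and 141 CPM), Hist2h2ac (38.8 and 140 CPM) and Hist1h1c (102 and 165 CPM) went the same way. Hist1h2ap ran the other way, with 2778 CPM (2741 to 2815) in DEHP_MLT members and 1802 CPM (1768 to 1837) in MLT members. Hist1h4h at -1.90 and Hist1h3e at -1.50, histone genes outside the list, were also lower. Copies of the same core histone are nearly identical in sequence, so the share of UMIs given to each copy is uncertain. How UMIs were divided among the listed histone genes was not tested.

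Hist1h1b differed in both phase states. It stood at 326 CPM in DEHP_MLT and 1330 CPM in MLT among G2/M-led members, and at 106 CPM in DEHP_MLT and 434 CPM in MLT among G1/S-led members. Cycling barcodes outside the stroma had another pattern. Among those with less than 20 of the collagen and Dcn sum and less than 1 of the germ genes Ddx4 and Dazl, 462 in DEHP_MLT and 196 in MLT, Hist1h1b stood at 293 and 396 CPM and Hist1h4d at 99.1 and 123 CPM. Of the 13 histones tested in stroma, Hist1h1b, Hist1h4d and Hist2h2ac were lower in DEHP_MLT in those barcodes and the other 10 were higher, with intervals apart. Hist1h2ap stood at 3682 CPM in DEHP_MLT and 840 CPM in MLT there, Hist1h2ae at 712 and 309 CPM, Hist1h1c at 286 and 81.3 CPM, and Hist1h3c at 158 and 84.1 CPM. Those barcodes mix several cell types, and the difference between the ratios was not tested.

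**Figure D4:**
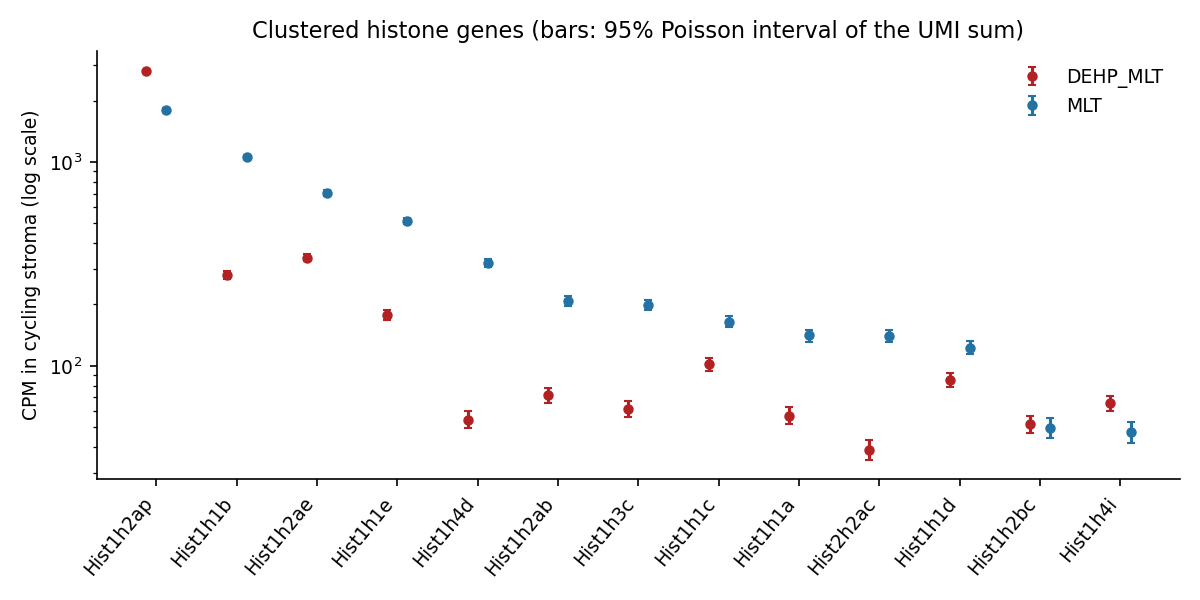
Levels in CPM (y axis, log scale) of the 13 tested clustered histone genes (x axis) in cycling stroma of DEHP_MLT (red, left of each pair) and MLT (blue), with bars for the 95% Poisson interval of the UMI sum. Hist1h2ap is higher in DEHP_MLT, at 2778 against 1802 CPM, and 9 genes are lower.

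Most clustered histone RNAs end in a stem-loop and carry no poly(A) tail, and Slbp, which binds that loop, stood at 244 CPM in DEHP_MLT members and 250 CPM in MLT members. The polyadenylated variant histone H2afz stood at 2252 CPM in DEHP_MLT and 2326 CPM in MLT, and the linker variant H1f0 at 437 and 374 CPM. Some histones were also lower in DEHP_MLT in non-cycling stroma, where most were under the level filter. Hist1h4d stood there at 9.73 CPM in DEHP_MLT and 40.3 CPM in MLT, Hist1h1b at 16.3 and 35.4 CPM, and Hist1h1e, which was called lower, at 33.8 and 53.8 CPM. Some other RNAs were likewise lower in both classes. Gm42418, a gene model over ribosomal RNA, stood at 1107 CPM in DEHP_MLT members and 3403 CPM in MLT members, with log2 ratios of -1.62 in members and -1.75 in non-cycling stroma. The mitochondrial genes mt-Atp8 and mt-Nd6 had ratios of -2.19 and -2.02 in members, and the nuclear RNA Malat1 a ratio of -0.72 in members and -0.73 in non-cycling stroma. The nuclear RNA Neat1 ran the other way, with ratios of 1.27 in members and 0.79 in non-cycling stroma. The median mitochondrial share of a barcode was close, at 3% in DEHP_MLT members and 3.09% in MLT members. The part of these differences in the histone result was not tested.

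Genes of division and replication were in part lower in DEHP_MLT members, to be read against the 8.8% of all tested genes that were lower and the drop of that count to 197 with median-ratio scaling. Of 22 tested spindle genes 7 were lower and 0 higher in DEHP_MLT members, with a median of -0.37, and of 17 kinetochore genes 4 were lower. Prc1, which bundles midzone microtubules, stood at 388 CPM in DEHP_MLT members and 591 CPM in MLT members. Of 19 replication fork genes 3 were lower, among them Dnmt1, the maintenance DNA methyltransferase, with 89.1 CPM in DEHP_MLT and 186 CPM in MLT, and Pola1, with 42.3 and 85.9 CPM. Of 8 tested DNA repair genes 5 were lower, among them Brca1 (33.0 and 61.3 CPM), Brca2 (45.8 and 74.4 CPM), Mdc1 (38.3 and 64.2 CPM) and Parp1 (76.7 and 123 CPM). Of 7 nucleotide synthesis genes 0 were apart. Cyclins split, with Ccnd3 higher (265 CPM in DEHP_MLT, 175 CPM in MLT), Ccnf lower (47.0 and 77.9 CPM) and Ccnb1 not apart (162 and 167 CPM). Cdkn1b, the inhibitor p27, was lower, with 45.8 CPM in DEHP_MLT and 83.0 CPM in MLT. The levels of Mki67 (580 and 960 CPM) and Top2a (735 and 1174 CPM), which define the members, were also lower in DEHP_MLT.

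Inhibitors of differentiation and immediate-early genes gave the highest ratios among genes not tied to blood. Id1, a BMP-responsive inhibitor of helix-loop-helix factors, stood at 467 CPM (451 to 482) in DEHP_MLT members and 82.5 CPM (75.4 to 90.1) in MLT members, a log2 ratio of 2.48. Id3 stood at 516 CPM in DEHP_MLT and 162 CPM in MLT, and Id2 at 591 and 303 CPM. Of 20 immediate-early and stress genes 10 were higher and 0 lower, with a median of 0.62. Over all tested genes 1.98% were higher and 8.8% lower, with a median of -0.12. Klf4, a transcription factor, stood at 263 CPM in DEHP_MLT members and 65.8 CPM in MLT members, Klf2 at 492 and 161 CPM, and Dusp1, a phosphatase of MAP kinases, at 356 and 90.4 CPM. Fos was not apart at 1785 CPM in DEHP_MLT and 1201 CPM in MLT, and Egr1 stood at 1118 and 1192 CPM. In non-cycling stroma 7 of its 20 tested genes were higher, with a median of 0.37, where 56 of all 3421 tested genes were higher. In non-cycling stroma Id1 had a ratio of 2.31, Klf4 one of 2.07 and Dusp1 one of 1.80.

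The highest 5 ratios belonged to genes of red blood cells and neutrophils. Slc4a1, the erythrocyte anion exchanger, stood at 56.5 CPM in DEHP_MLT members and 3 CPM in MLT members, Alas2, the first enzyme of erythroid haem synthesis, at 94.7 and 7 CPM, and Car2 at 66.3 and 7.17 CPM. S100a9 stood at 114 CPM in DEHP_MLT and 8 CPM in MLT, and S100a8 at 94.9 and 8.17 CPM. The 6 erythroid markers summed to 18426 CPM in DEHP_MLT members and 2078 CPM in MLT members, and 419 of 419 DEHP_MLT members and 214 of 416 MLT members had 4 or more of them per 10,000. The part of this RNA in the ratios of other genes was not tested. Without the barcodes at 100 or more haemoglobin UMIs per 10,000, Slc4a1, Alas2 and Car2 no longer met the rule, with log2 ratios of 3.80, 3.42 and 1.64, while Id1, Klf4 and Dusp1 still did. Icam1, an adhesion molecule (109 CPM in DEHP_MLT, 27.7 CPM in MLT), and Cd24a (209 and 61.3 CPM) completed the highest 12 with Gpx1.

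Antioxidant genes, of interest because melatonin is known as an antioxidant, were mixed. The counts below are to be read against 1.98% of all tested genes higher and 8.8% lower. Gpx1, a glutathione peroxidase, stood at 306 CPM (294 to 319) in DEHP_MLT members and 93.9 CPM (86.3 to 102) in MLT members. The metallothioneins Mt1 (158 and 50.8 CPM) and Mt2 (55.5 and 18.7 CPM) were higher, Txnrd1, a thioredoxin reductase, was lower (51.4 and 91.5 CPM), and the other 12 of 16 tested were not apart. Prdx1 stood at 582 CPM in DEHP_MLT and 583 CPM in MLT. Of 12 genes of the endoplasmic reticulum, the chaperones Pdia3 (171 and 283 CPM) and Pdia6 (254 and 391 CPM) were lower and the stress factors Atf4 (255 and 124 CPM) and Ddit3 (50.6 and 23.8 CPM) higher. Of 9 glycolysis genes Eno1 (141 and 89.2 CPM) and Ldha (232 and 134 CPM) were higher. H2-K1 and H2-D1, the classical MHC class I genes, were lower at -2.11 and -1.86, while the interferon-induced Ifitm3 (497 and 206 CPM) was higher. Among members with no UMI of the MHC class II genes, H2-K1, H2-D1, S100a8 and S100a9 no longer met the rule, with log2 ratios of -1.95, -1.82, 2.07 and 2.22. Tsix, the antisense partner of Xist, was lower at -1.78, and whether the counting used strand is not stated in the labels, so its reads and those of Xist may not have been told apart.

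Most stroma identity genes were not apart between the libraries, as was so for most tested genes, of which 1.98% were higher and 8.8% lower in DEHP_MLT. Of 16 tested transcription factors Tcf21 alone was apart, with 328 CPM in DEHP_MLT members and 161 CPM in MLT members, and its ratio was 0.88 in non-cycling stroma. Wt1, Gata4 and Meis1 had ratios between -0.05 and 0.17. Of 22 tested matrix genes, Eln, which encodes elastin, was higher (384 and 238 CPM), and Postn (51.5 and 83.4 CPM) and Vcan (60.5 and 169 CPM) were lower. Ptch1, the hedgehog receptor and target, stood at 50.6 CPM in DEHP_MLT members and 108 CPM in MLT members, and Pdgfra at 142 and 223 CPM. Of 5 tested hedgehog genes Ptch1 alone was apart, and the list median was -0.14, against -0.12 over all tested genes. Among imprinted growth genes Dlk1 (846 and 433 CPM) and H19 (515 and 328 CPM) were higher, and Igf2 stood at 86.4 and 74.9 CPM. Of the melatonin receptor genes looked for, Mtnr1b and Gpr50 had 0 UMIs in members of both libraries, which allows each up to 0.478 CPM in DEHP_MLT and 0.615 CPM in MLT (exact intervals), and Mtnr1a is not analysed here.

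**Figure D5:**
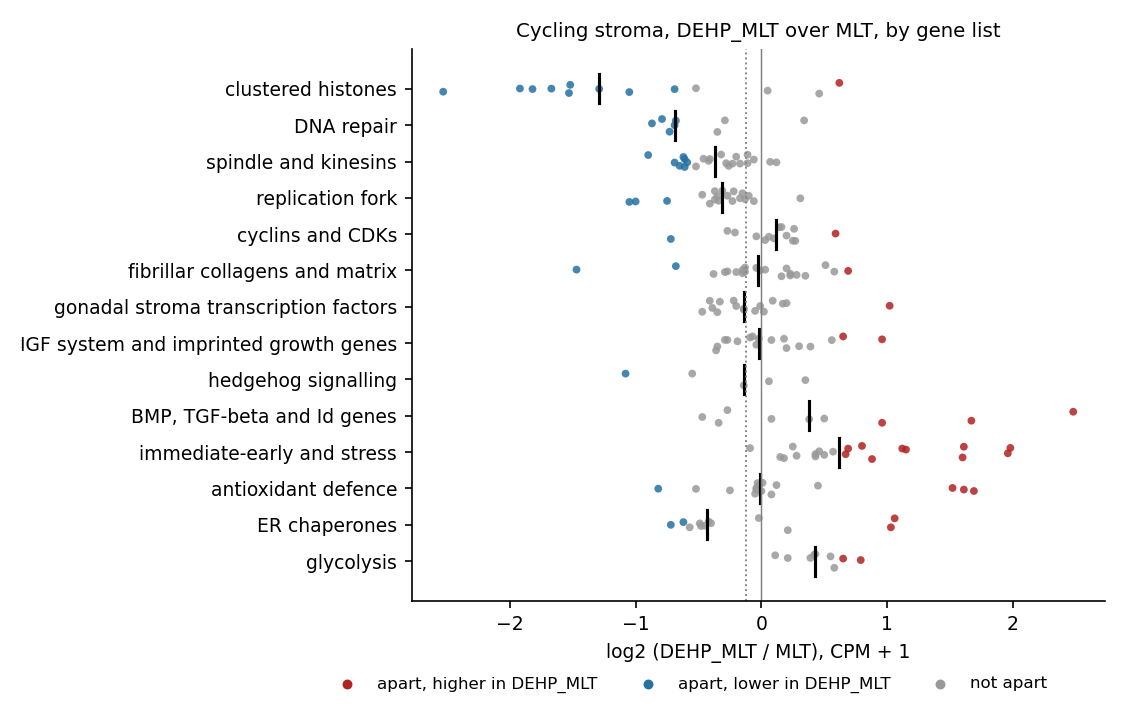
Log2 ratios of DEHP_MLT over MLT in cycling stroma (x axis) for the tested genes of 14 lists (rows), 1 point per gene, red where higher and blue where lower in DEHP_MLT by the rule used and grey where not apart; black bars are list medians and the dotted line the median of all tested genes. Clustered histones have a median of -1.29 and immediate-early genes one of 0.62, against -0.12 for all tested genes.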

How the data were processed

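Single-cell RNA of newborn mouse ovaries was measured in 2 libraries, 1 per group. The authors deposited a table of UMI counts per gene and barcode for each library; Cell Ranger, Seurat 4.2.0 and mm9 are named per the submitters' processing notes, without version for the first and without their settings. How barcodes were filtered before deposit is not stated in the labels: the lowest barcode total was 6923 in DEHP_MLT and 2031 in MLT, so a floor of 5000 UMIs acts in MLT alone. The 21018 genes in both tables were used, and 4 barcode sequences occurred in both libraries, 0 of them as members of both. Members summed to 7723279 UMIs in DEHP_MLT and 5998844 in MLT.

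Counts were summed per class with Python 3.11.15, numpy 2.4.6, scipy 1.17.1 and pandas 2.3.3, and the comparison step was tested on simulated data. Thinning to 5000 UMIs used a fixed seed. Doublets were not removed. The 12 highest and 12 lowest ratios of each comparison were named, without rule genes, haemoglobin genes, genes of the ribosome or mitochondrion and models with no name, together with the extremes of each list; other genes are named to show members that did not move and were chosen after their values were seen. Members, lists and tests were chosen with earlier results of these data known. Of 648 list entries 645 matched the tables. Promoter windows are RefSeq's on GRCm38.p6, a different build from that of the files, and were matched by symbol. Alternatives covered the limits of the rule, thinning, scaling, weighting of barcodes, level filter, ratio and pseudocount. No count model was fitted, because 1 library per group leaves no replicate spread. A few single genes are not reported here.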

Additional observations from a re-analysis of the deposited data

How the results depend on the processing

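The direction of the 48 named genes was kept in all 528 values under the alternatives run, with 33 no longer past the rule. Of 60 list medians 12 moved and 0 changed sign. Members made up 26.5% of gated stroma in DEHP_MLT and 30.4% in MLT at a limit of 1 on Mki67 and Top2a, 16.0% and 16.8% at a limit of 4, 27.0% and 31.2% after thinning with 1 or more UMI, 16.7% and 18.7% with 2 or more, and 15.3% and 14.3% at a collagen and Dcn limit of 80. MLT was the higher in 9 of 10 such settings, and the intervals overlapped in 8. Genes higher in DEHP_MLT numbered 110 with median-ratio scaling, 40 at a 2-fold ratio, 157 with a 20 CPM filter and 331 with no filter, and genes lower numbered 197, 30, 647 and 1001, and 143 with a 100 CPM filter. Genes higher in cycling stroma numbered 207 at a 2-fold ratio, 571 at 20 CPM, 165 at 100 CPM and 871 with no filter, and genes lower numbered 3, 86, 18 and 196. G2/M genes led in 83.4% of DEHP_MLT and 74.6% of MLT members at a limit of 4, and in 81.9% and 75.2% with Mki67 and Top2a kept in the list. Leaving out haemoglobin-rich barcodes and scaling without blood, mitochondrial and ribosomal genes were added after seeing the data. The remaining 53 of 84 values of this kind moved by less than their interval or 1.5-fold. No paired analysis was possible because each group has 1 library. With 1 library per group, differences between groups, between litters and between preparations cannot be told apart, and depth limits genes below the level filter.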
